A study of Drosophila melanogaster with 4 samples.

Results

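The centromere-side ends of arms 2L, 3L and X, chromosome 4 and the separately assembled heterochromatic sequences of the fly genome held few H4K8ac clusters. A cluster is a region that the authors called as enriched for histone H4 acetylated at lysine 8 over input. Clusters were taken by position alone: on 2L with a start above 21.0 Mb, on 3L above 22.9 Mb, on X above 20.0 Mb, on chromosome 4, or on a sequence whose name ends in Het. This gave 112 of 8148 clusters in replicate 1, 108 of 8140 in replicate 2 and 250 of 10650 in the authors' combined replicate set. Coordinates are those of FlyBase release 5.

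The libraries were made from head nuclei of wild-type Oregon-R flies of the Mixed Adult stage, with 2 ChIP libraries and 2 input libraries, each input serving 1 ChIP library. Flies came from population cages, heads were separated by sieving, and no sex, genotype difference or treatment distinguishes the samples. Nothing in the labels says that the replicates are separate collections, and their spread may be technical. A head sample mixes neurons, glia, photoreceptors and other cells, and in bulk chromatin fewer cells with the mark and less mark per cell cannot be told apart. The labelled tissue could not be checked against marker genes, because genes were not assigned to these coordinates.

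Pericentromeric heterochromatin is the compact, repeat-rich chromatin that flanks the centromere. It carries methylated lysine 9 of histone H3, binds the protein HP1 and keeps nucleosomes poor in acetyl groups, yet it holds genes that are expressed there. Chromosome 4 is a very small chromosome on which heterochromatin and active genes are interspersed. Acetylation of H4 at lysine 8 accompanies open promoters and transcribed genes. Repeated sequence is why part of the heterochromatin was assembled in release 5 as the separate sequences 2LHet, 2RHet, 3LHet, 3RHet, XHet and YHet.

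A cluster is described here by its length, by the score the authors gave it, and by the share of bases covered. The score was read as a base-2 logarithm, since differences between scores gave ratios of whole numbers for 100% of the clusters of each replicate list when 2 was raised to them. In the combined set this held for 99.8% of the clusters. On this reading a difference of 1 is a doubling of the scored quantity, whose definition is not given in the sources used here. Read totals are not in the lists, so depth is unknown and low coverage is a statement on calls. Shares of bases were taken in windows of 100 kb and over whole stretches. They are shares of all bases, and repeats or gaps to which reads cannot be assigned were not removed. The part of such bases in the low shares was not tested. Means carry the SD of both ChIP replicates.

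Coverage at the centromere-side ends was below that on the rest of the same arm, by far on 2L and 3L and less so on X. On 2L the end was covered to 3.55% ± 0.00232, against 28.5% ± 0.804 on the rest of 2L (SD, n = 2). On 3L it was covered to 1.29% ± 0.193, against 28.2% ± 0.356, and on X to 7.37% ± 0.921, against 17.9% ± 1.31 (SD, n = 2). The ratios of end to rest were 0.125 ± 0.00343 on 2L, 0.0459 ± 0.00627 on 3L and 0.412 ± 0.0214 on X (SD, n = 2). The ends were lower in both replicates on all 3 arms. An exact two-sided sign-flip permutation test over the replicates gave p = 0.5 for each ratio, which is the smallest p that 2 replicates allow.

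On each arm the border was set at the centromere-side edge of the last 100 kb window that was covered to at least 10% in the mean of the replicates. This placed it at 21.1 Mb on 2L, 23.0 Mb on 3L and 22.2 Mb on X, and each replicate taken alone gave the same 3 positions. On X the window that set it was close to the threshold in replicate 1, at 10.1%. Beyond the borders lay 1.91 Mb of 2L, 1.54 Mb of 3L and 0.223 Mb of X. Of all 100 kb windows of the 5 large arms, 69.6% reached 10%. In the 1129 full windows outside the 3 arm ends, median coverage was 22.6%, and 5.67% of them held no replicate cluster.

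**Figure D1:**
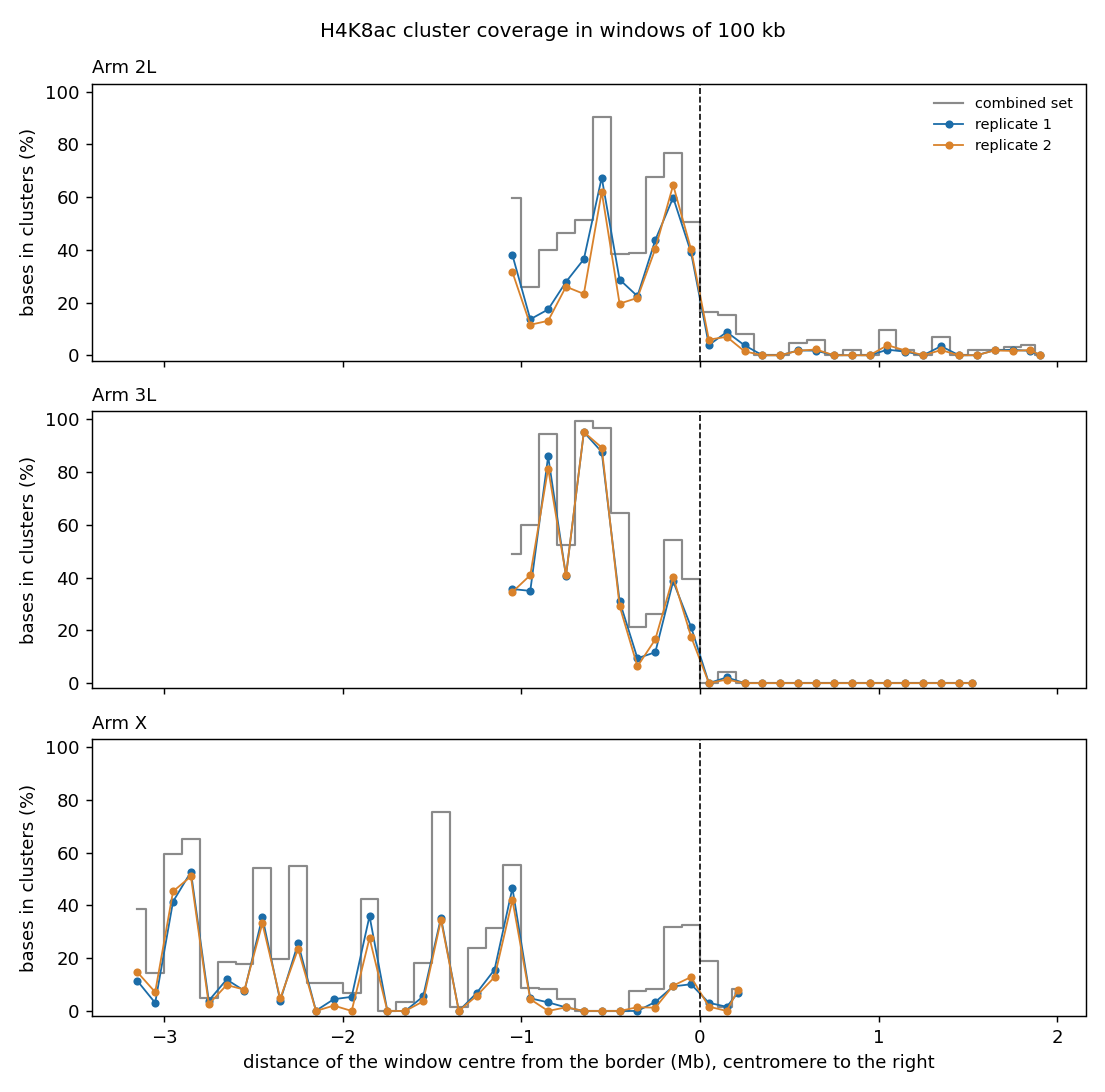
Share of bases in H4K8ac clusters (%) in 100 kb windows on 2L, 3L and X, plotted by the distance of the window centre from the border (Mb), with the centromere to the right and the border as a dashed line. Points are the replicates and the grey step line is the combined set; on 2L and 3L coverage drops at the border, and on X it falls 1 Mb earlier and returns to about 10% in the last windows before it.

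On 2L the fall took place within 1 step. Coverage was 62.2% ± 3.36 from 20.9 to 21.0 Mb, 39.6% ± 0.844 from 21.0 to 21.1 Mb and 4.89% ± 1.45 from 21.1 to 21.2 Mb (SD, n = 2). The next step still held 7.90% ± 1.28 and the one after it 2.60% ± 1.61 (SD, n = 2). From 21.4 to 21.6 Mb neither replicate nor the combined set had a cluster. From 21.6 Mb to the end of the arm sequence coverage was 1.17% ± 0.0389 (SD, n = 2), without an ordered fall, and 3 of its last 4 steps, from 22.7 to 23.0 Mb, held between 1.81% and 1.89% in the mean.

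The last long block of clusters near 21.0 Mb of 2L ended at nearly the same base in both libraries, but its single clusters were cut differently. Replicate 1 had a cluster of 28.4 kb at 2L 20992472 to 21020896 that began before 21.0 Mb and so is not counted here, and replicate 2 had one of 22.2 kb at 2L 20980916 to 21003099 that overlapped its first part. Among the clusters counted, the longest were 7.89 kb at 2L 21029593 to 21037482 in replicate 1 and 11.6 kb at 2L 21006988 to 21018594 in replicate 2. The latter lies wholly inside the 28.4 kb cluster of replicate 1 that is left out by its start, so these lengths are of different stretches. The highest scores there were 0.91 in replicate 1, at 2L 21023049 to 21029249, and 0.95 in replicate 2, at 2L 21023152 to 21028627. The block that began with these clusters ended at 21041759 in replicate 1 and at 21041751 in replicate 2. Its closing cluster measured 4034 bp in replicate 1 and 9634 bp in replicate 2, and the starts of these differed by 5608 bp. The combined set joined the block into 1 cluster of 19.0 kb, 2L 21023009 to 21041982, with a score of 0.75. Replicate 2 had another pair of short clusters before 21.1 Mb, the last at 2L 21078739 to 21080455 with a score of 0.50.

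On 3L the fall was complete within 1 step. Coverage was 95.2% ± 0.00919 from 22.3 to 22.4 Mb and 88.5% ± 1.17 in the next step (SD, n = 2). It was 30.2% ± 1.29, 7.88% ± 2.18, 14.1% ± 3.44 and 39.4% ± 1.15 in the following steps up to 22.9 Mb (SD, n = 2). The step from 22.9 to 23.0 Mb held 19.5% ± 2.58 (SD, n = 2), and the step after it held no cluster in any list. From 23.2 Mb to the end of the sequence, a stretch of 1.34 Mb, the replicates and the combined set were at 0 clusters. The decline before the border was thus uneven, with a low step between covered ones.

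Between 22.9 and 23.0 Mb of 3L, replicate 1 had 8 clusters and replicate 2 had 9. The longest was 6.54 kb in replicate 1, at 3L 22917274 to 22923809, and 3.19 kb in replicate 2, at 3L 22940071 to 22943255. The highest score was 0.94 in replicate 1, at 3L 22928693 to 22931173, where replicate 2 scored 0.62 over nearly the same bases. The highest score of replicate 2 was 0.66, at 3L 22916589 to 22918705. The last cluster before the border lay at 3L 22971923 to 22973540 in replicate 1, with a score of 0.51. In replicate 2 it lay at 3L 22972366 to 22973929, with a score of 0.49. Next came a stretch without clusters of 168.7 kb in replicate 1 and 168.3 kb in replicate 2.

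X had no single drop. From 20.0 to 21.2 Mb coverage averaged 11.8% ± 1.62 (SD, n = 2), but it was held by a few steps between nearly empty ones. The covered steps were 20.3 to 20.4 Mb at 31.8% ± 5.91, 20.7 to 20.8 Mb at 34.9% ± 0.634, 21.0 to 21.1 Mb at 14.3% ± 2.00 and 21.1 to 21.2 Mb at 44.3% ± 3.20 (SD, n = 2). Steps at 20.4, 20.5 and 20.8 Mb held no replicate cluster. The longest cluster of each replicate lay in the last covered step, 13.7 kb at X 21137854 to 21151564 in replicate 1 and 14.0 kb at X 21137997 to 21152031 in replicate 2, with scores of 0.96 and 0.95. These were the only clusters of 10 kb or more among the X clusters counted here in the replicates.

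Past 21.2 Mb X emptied and then filled again in part. From 21.2 to 21.8 Mb coverage was 1.27% ± 0.424 (SD, n = 2), and from 21.5 to 21.8 Mb no list had a cluster. From 22.0 to 22.2 Mb it was 9.72% in replicate 1 and 11.2% in replicate 2, and 32.1% in the combined set. When the border was instead put at the start of the first run of 5 windows under 10%, it lay at 21.2 Mb on X, and at the same 21.1 and 23.0 Mb as before on 2L and 3L. The X border at 22.2 Mb thus rests on the single window from 22.1 to 22.2 Mb. That window was covered to 11.5% ± 1.92 (SD, n = 2), and to only 10.1% in replicate 1. The wider stretch from 21.8 to 22.3 Mb was covered to 5.27% ± 0.118 (SD, n = 2).

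In that stretch near the centromere end of X, replicate 1 had 14 clusters and replicate 2 had 15, with median scores close to those elsewhere on X. The median score was 0.80 in replicate 1 and 0.76 in replicate 2, against 0.81 and 0.76 on X before 20.0 Mb. The highest were 1.06 at X 22130279 to 22132286 in replicate 1 and 0.93 at X 22111235 to 22113839 in replicate 2. Neither of these overlapped a cluster of the other replicate. Of the replicate 1 clusters 7 of 14 overlapped a replicate 2 cluster, and in the other direction 8 of 15, against 77.7% and 80.8% over the whole lists. Among the shared ones the highest score of replicate 1 was 0.96, at X 22079732 to 22082940, where the replicate 2 cluster X 22079853 to 22082135 scored 0.89. The highest of replicate 2 was 0.91, at X 22120482 to 22122597, where replicate 1 scored 0.84.

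Over the whole of X from 20.0 Mb to the border, 42 of 68 replicate 1 clusters were shared (61.8%, exact 95% binomial interval 49.2 to 73.3). In replicate 2 the count was 43 of 59 (72.9%, interval 59.7 to 83.6). Both shares are below those of the whole lists, 77.7% in replicate 1 and 80.8% in replicate 2. The share on X before 20.0 Mb was not computed, so low sharing cannot be called particular to this stretch. Intervals cover counting error alone and treat neighbouring clusters as independent. The highest score of replicate 1 in this stretch, 1.21 at X 20693286 to 20696070, belonged to a cluster with no partner. In replicate 2 the highest was 0.99, at X 20365277 to 20374960, where replicate 1 had its cluster X 20365368 to 20375052 with 1.07. The last cluster before the border, X 22183888 to 22185205 with 0.85 in replicate 1 and X 22192390 to 22194066 with 0.62 in replicate 2, had no partner in either.

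In both replicates the longest cluster-free stretch near the centromere of X and of 2L exceeded any on the rest of the arm. On X the longest measured 511 kb in replicate 1 and 403 kb in replicate 2, against at most 294 and 307 kb before 20.0 Mb. On 2L it spanned 397.3 kb in replicate 1, from 21747803 to 22145073, and 397.1 kb in replicate 2, from 21747904 to 22145049. Before 21.0 Mb the longest on 2L were 350 and 381 kb, so the lead in replicate 2 was small. In the combined set the longest stretches on 2L were nearly equal, 237.8 kb near the centromere and 237.0 kb before 21.0 Mb. On X they were 361 and 198 kb. The combined set also had 2 clusters from 21.9 to 22.0 Mb of 2L, inside the 397 kb stretch. The median distance between neighbouring clusters beyond the 2L border was 95.0 kb in replicate 1 and 94.8 kb in replicate 2. On the rest of 2L it was 1.96 and 2.05 kb. On 3L the 168 kb stretch behind the border was shorter than the longest on the rest of the arm, 307 and 328 kb, but the last cluster was followed by 1.40 Mb without a call in both replicates.

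Runs of windows under 10% were longer at the ends of 2L and 3L than on the rest of these arms. All windows beyond a border are under 10% by its definition. The run at the end thus restates the border, with 20 windows from 21.1 Mb on 2L and 16 from 23.0 Mb on 3L. Outside the ends the longest runs were 4 windows on 2L and 5 on 3L. On X the run from 21.2 to 22.1 Mb had 9 windows, and another of 9 windows lay at 15.5 to 16.4 Mb, away from the centromere. The run near the centromere of X was thus no longer than a run elsewhere on that arm. Arm 2R had a run of 16 windows at 0 to 1.6 Mb, which is its centromere side. The rule does not take in that stretch, so it is part of the rest of the 5 arms wherever those are the reference.

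Clusters beyond the borders, on chromosome 4 and on the Het sequences were few, short and of low score. They numbered 33 in replicate 1 and 32 in replicate 2 and covered 64.5 and 62.1 kb. Their median length was 1839 bp in replicate 1 and 1807 bp in replicate 2, against 2185 and 2121 bp on the rest of the 5 arms. None reached 5 kb in either replicate, where 18.9% and 16.9% of the clusters on the rest of the arms did. Their median score was 0.50 in replicate 1 and 0.47 in replicate 2, against 0.66 and 0.65.

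The comparison was also made among short clusters. Clusters under 5 kb on the rest of the arms had median scores of 0.63 and 0.62, still above 0.50 and 0.47. The difference in median score between the clusters beyond and those on the rest of the arms was -0.17 ± 0.01, and that in median length was -330 ± 22.6 bp (SD, n = 2). Both had the same sign in each replicate. On 2L alone, 15 clusters beyond the border had a median score of 0.51 in replicate 1 and 0.49 in replicate 2, against 0.64 and 0.63 on the rest of the arm. On X the medians beyond the border were 0.64 for 4 clusters and 0.59 for 2, against 0.81 and 0.76. On 3L the only cluster scored 0.63 in replicate 1, close to the 0.64 on the rest of the arm. In replicate 2 it scored 0.36, against 0.62. The borders were drawn from the same lists, so these differences were not tested.

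**Figure D2:**
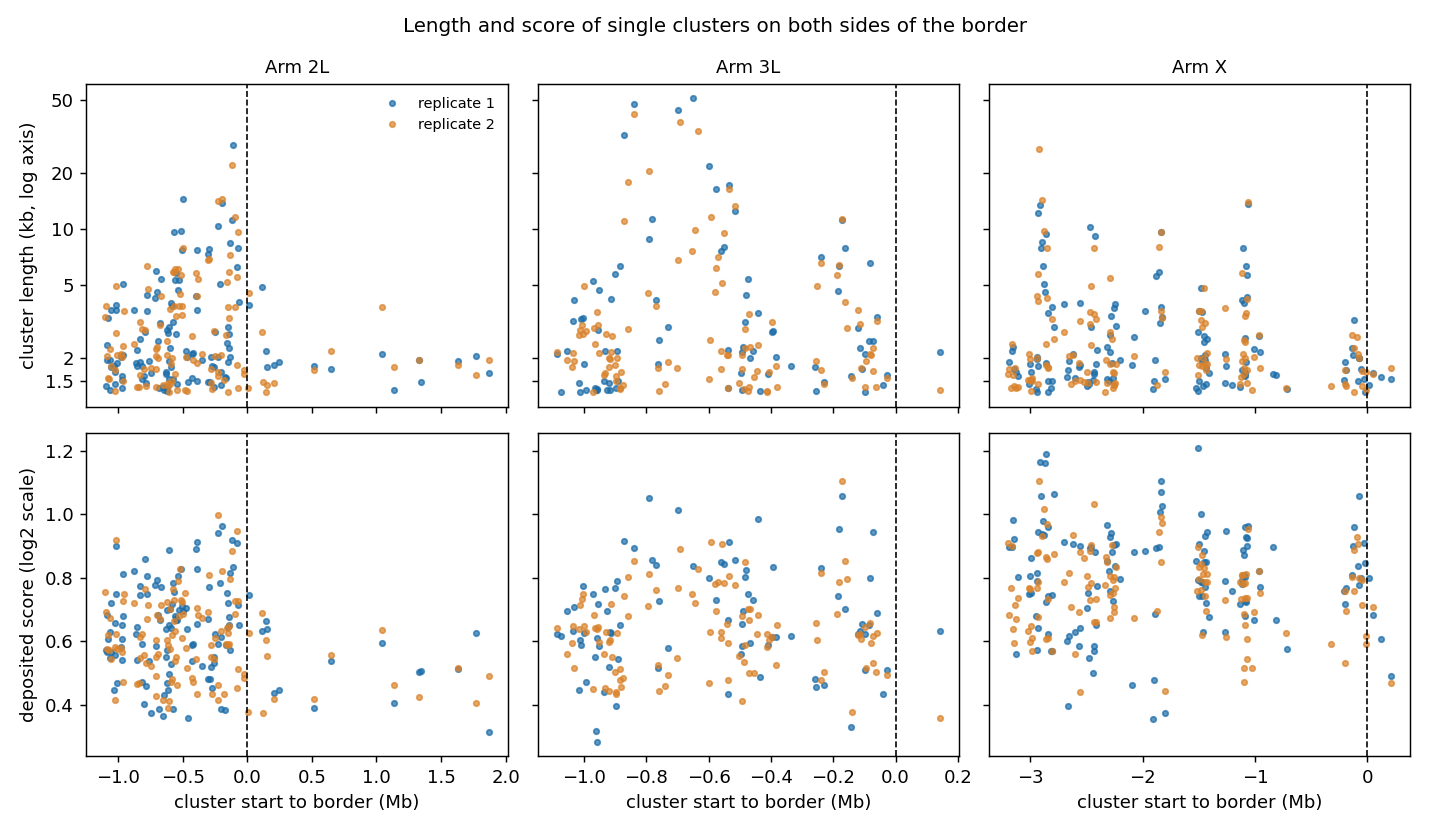
Length (kb, log axis, upper row) and deposited score (log2 scale, lower row) of each cluster by the distance of its start from the border (Mb), for 2L, 3L and X and both replicates, with the border as a dashed line. Clusters past the line on 2L and 3L are few and under 5 kb, and the clusters just before the line on X have scores of up to 1.06.

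The few clusters beyond the borders were found again in the other replicate about as often as clusters elsewhere. In replicate 1, 25 of 33 shared 1 bp or more with a replicate 2 cluster (75.8%, exact 95% binomial interval 57.7 to 88.9), against 77.7% of the whole list. In replicate 2 it was 25 of 32 (78.1%, interval 60.0 to 90.7), against 80.8%. These shares are near the background and are no result about the clusters beyond the borders. Required to overlap reciprocally by at least 50%, 24 clusters of each replicate remained shared, against 52.5% of each whole list. As shares these are 72.7% of 33 and 75.0% of 32, above that background. Clusters beyond the borders are also shorter, and the part of length in this difference was not tested.

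Shared clusters that overlapped one to one mostly agreed closely in their edges. In 22 such pairs, starts differed by a median of 133 bp and ends by 95.5 bp, and at most by 352 and 1660 bp. Places on 2L and chromosome 4 where a cluster met more than 1 cluster of the other replicate are left out. The 3510 such pairs on the rest of the arms differed by a median of 273 and 280 bp. Those pairs were longer, with medians of 2242.5 and 2147 bp in replicates 1 and 2, against 1939.5 and 1843 bp. The part of length in these differences was not tested. The shared bases made up a median of 83.3% of the union of a pair, against 75.1% on the rest of the arms. Scores in replicate 2 were above those of replicate 1 in 12 of the 22 pairs, and the median absolute difference was 0.05. On the rest of the arms replicate 2 was above replicate 1 in 1431 of the 3510 pairs, with a median absolute difference of 0.08. Pairs are not replicates and neighbours are far apart beyond the borders, so this is a description without a test.

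**Figure D3:**
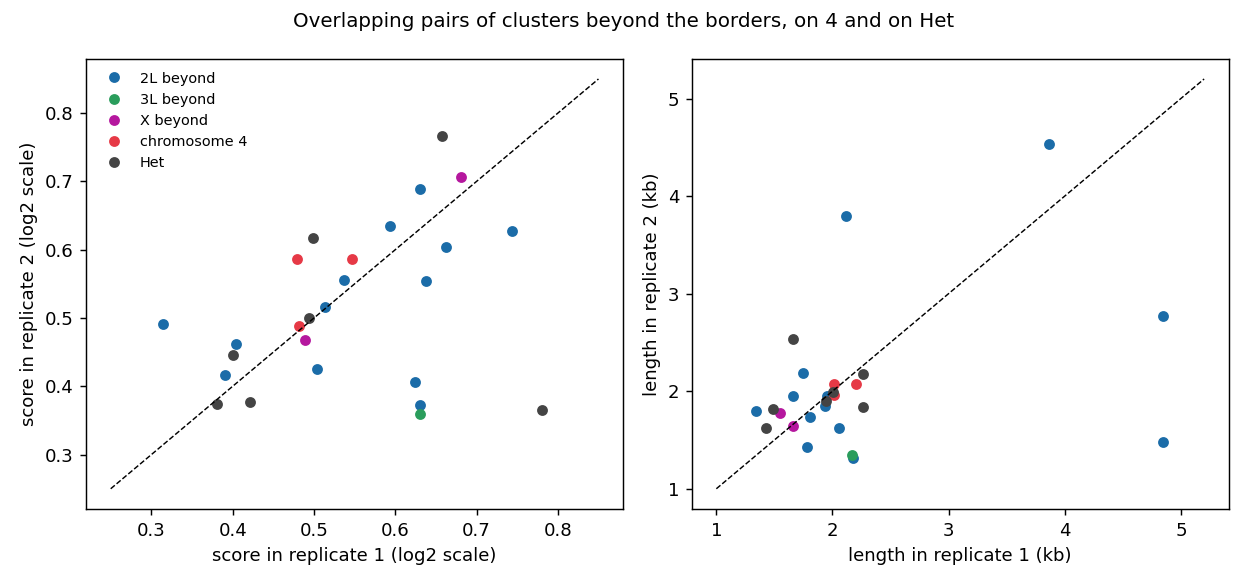
Score (left, log2 scale) and length (right, kb) in replicate 1 and replicate 2 for every overlapping pair of clusters beyond the borders, on chromosome 4 and on Het sequences, with the line of equality dashed. Most pairs lie near the line in length at about 2 kb, and the dot farthest from it in score is the 2RHet pair with 0.78 and 0.37.

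On 2L, 12 of 15 replicate 1 clusters beyond the border lay in both replicates, and 13 of 15 replicate 2 clusters. Nearest to the border were 2L 21114046 to 21117907, with scores of 0.74 in replicate 1 and 0.63 in replicate 2, and 2L 21215947 to 21220790. The latter had a score of 0.63 in replicate 1 and was split in replicate 2 into 2 clusters with scores of 0.69 and 0.37. At 4844 bp it was the longest replicate cluster beyond any border. Then came 2L 21247520 to 21249697 with 0.66 and 0.60, and 2L 21253506 to 21255288 with 0.64 and 0.55. In replicate 1 the scores of these 4 clusters lay between 0.63 and 0.74, around the median of 0.64 on the rest of the arm. In replicate 2 the scores at these places spread more widely, from 0.37 to 0.69, on both sides of its median of 0.63.

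Farther in, on either side of the long stretch of 2L without replicate clusters, shared clusters were single islands of about 2 kb. At 2L 21618262 to 21620069 the scores were 0.39 in replicate 1 and 0.42 in replicate 2, and at 2L 21746056 to 21747802 they were 0.54 and 0.56. The cluster at 2L 22145074 to 22147187 scored 0.59 and 0.63 and measured 2114 bp in replicate 1 and 3798 bp in replicate 2. The next ones were 2L 22239213 to 22240556 with 0.40 and 0.46, and 2L 22430280 to 22432233 with 0.50 and 0.42. Each stood alone in its 100 kb step in replicate 2.

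The innermost clusters of 2L lay within 0.3 Mb of the end of its sequence. At 2L 22734939 to 22736874 both replicates scored 0.51 and 0.52, and their starts differed by 29 bp. At 2L 22874021 to 22876075 the scores were 0.62 and 0.41. The last cluster, 2L 22967729 to 22969389, scored 0.31 and 0.49, and 42.2 kb of sequence followed it in replicate 1 and 42.1 kb in replicate 2. Of the 20 windows beyond the 2L border, 11 held clusters in both replicates, 9 in neither and 0 in only 1 of them. This counts windows and does not require overlap. From 21.3 to 21.4 Mb both replicates had clusters, but none of them overlapped a cluster of the other. The share of such windows on the rest of 2L was not computed.

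Beyond the 3L border 1 cluster was called in each replicate, at the same place. It lay at 3L 23142196 to 23144367 with a score of 0.63 in replicate 1, and at 3L 23142222 to 23143563 with 0.36 in replicate 2. Beyond the X border 2 of 4 replicate 1 clusters were shared with the 2 clusters of replicate 2. They were X 22251663 to 22253321, with scores of 0.68 and 0.71, and X 22414383 to 22415930, with 0.49 and 0.47. The latter ended 6.90 kb before the end of the X sequence in both replicates, and its ends differed by 2 bp.

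Chromosome 4 had 4 clusters in each replicate on 1.35 Mb, and they covered 0.560% of it in replicate 1 and 0.551% in replicate 2. This was 0.0209 ± 0.000435 of the coverage of the 5 arms outside the ends (SD, n = 2), with p = 0.5 in the exact sign-flip permutation test. All replicate clusters lay between 0.5 and 1.1 Mb. The first 0.5 Mb held no replicate cluster, although the combined set had clusters there. From 1.1 Mb to the end no list had a cluster.

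The sharpest overlap on chromosome 4 was at 924872 to 926887 in replicate 1 and 924942 to 926900 in replicate 2, with scores of 0.48 and 0.49. Near 1.05 Mb replicate 1 had 2 clusters, at 4 1048265 to 1050468 with 0.55 and at 4 1050964 to 1052972 with 0.48. Both touched the replicate 2 cluster 4 1050265 to 1052336, which scored 0.59, the first by only 204 bp. Clusters without a partner lay at 4 578417 to 579757 in replicate 1 and at 4 852627 to 854469 and 4 1081513 to 1083082 in replicate 2, with scores of 0.31, 0.44 and 0.38. No replicate cluster of chromosome 4 scored above 0.59.

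The 6 Het sequences, 9.28 Mb in all, had 9 clusters in replicate 1 and 10 in replicate 2, of which 7 in each were shared. Coverage was 0.173% in replicate 1 and 0.201% in replicate 2, or 0.00703 ± 0.000968 of that of the 5 arms outside the ends (SD, n = 2; exact sign-flip permutation p = 0.5). The clusters were unevenly spread. Most of the shared ones were on 3LHet, which had 5 clusters in each replicate, 4 of them shared, and was covered to 0.344% and 0.386%.

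On 3LHet the shared clusters lay near 0.4 Mb and near 2.2 Mb of the sequence, 2 at each place. At 3LHet 410241 to 412503 the scores were 0.66 in replicate 1 and 0.77 in replicate 2, the highest Het score of replicate 2, and at 3LHet 459221 to 460880 they were 0.50 and 0.62. At 3LHet 2190144 to 2192086 the scores were 0.42 and 0.38, and at 3LHet 2242093 to 2243519 they were 0.40 and 0.45. The pair near 0.4 Mb thus scored above the pair near 2.2 Mb in both libraries.

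On 2RHet the shared clusters were 390079 to 392337, with scores of 0.78 in replicate 1 and 0.37 in replicate 2, and 2899889 to 2901379, with 0.38 and 0.37. The first of them had the highest score of replicate 1 on any Het sequence and 1 of the lowest of replicate 2, although 81.4% of the joint bases were common. On 3RHet the only replicate cluster was shared, at 1822775 to 1824782, with scores of 0.49 and 0.50. A cluster on 2LHet, 31515 to 32998 with 0.39, was called in replicate 1 alone, and a cluster on XHet, 60652 to 62012 with 0.62, in replicate 2 alone. YHet, of 0.347 Mb, had 0 clusters in all 3 lists.

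**Figure D4:**
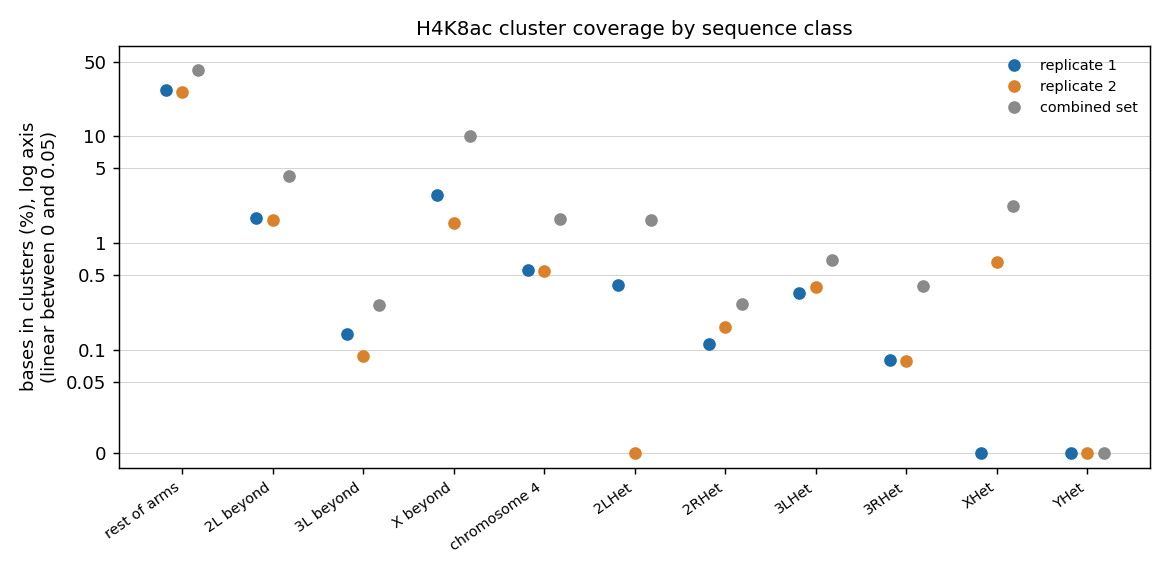
Share of bases in H4K8ac clusters (%, log axis that is linear between 0 and 0.05) for the 5 arms outside the ends, the parts of 2L, 3L and X beyond the border, chromosome 4 and each Het sequence, with 1 point per list. The arms outside the ends lie at 26.0% to 41.8%, and the sequences beyond 3L and on 3RHet lie near 0.1% in the replicates.

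The combined set called more clusters than either replicate. On the rest of the arms it listed 10397, against 8036 in replicate 1 and 8032 in replicate 2. Beyond the borders, on chromosome 4 and on Het the excess was relatively larger, with 99 against 33 and 32. Of these 99, 24 (24.2%, exact 95% binomial interval 16.2 to 33.9) overlapped a cluster of both replicates, against 38.5% of the whole set. Another 14 overlapped 1 replicate and 61 neither. Of these 61, 35 were shorter than 1301 bp, the shortest length in a replicate list, which is 57.4%. On the rest of the arms 49.6% of the 3874 combined clusters found in neither replicate were that short. The set is made from the same replicates and is no independent check.

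Its coverage was 4.26% beyond the 2L border, 0.261% beyond the 3L border, 10.1% beyond the X border, 1.70% on chromosome 4 and 0.508% on Het, against 41.8% on the rest of the arms. The longest combined clusters were 6.87 kb at 2L 21113748 to 21120615 beyond the border and 4.95 kb at 4 1047971 to 1052918. On Het the longest was 3.41 kb at 2LHet 167935 to 171342, which no replicate cluster overlapped. The highest combined scores there, 1.08 at 3LHet 1563327 to 1564341 and 1.05 at 2LHet 254049 to 255049, belonged to clusters of 1015 and 1001 bp seen in neither replicate. On chromosome 4 the highest combined score, 0.58 at 4 96772 to 97878, and on 3RHet the highest, 0.74 at 3RHet 1769399 to 1770403, also belonged to clusters of about 1 kb seen in neither replicate. Short clusters thus held the highest combined scores on these 4 sequences. On 2RHet and XHet the longest combined cluster was also the highest, with 0.52 at 2RHet 389626 to 392315 and 0.50 at XHet 60299 to 62301.

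Before the borders the combined set had long clusters on each arm. On X its longest was 18.9 kb at X 21081811 to 21100730, with a score of 0.69, while its highest score, 1.32, was at the 1006 bp cluster X 20177247 to 20178252. On 3L the cluster 3L 22913250 to 22923971 was its longest at 10.7 kb and scored 0.58, and its highest score was 0.71 at 3L 22928686 to 22931521, where both replicates had a cluster.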

How the data were processed

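Per the labels, H4K8ac ChIP-seq was done on head nuclei with 1 input library for each of 2 ChIP libraries. The authors deposited a list of enriched regions with 1 score each per ChIP library and 1 combined list; per the file headers coordinates are FlyBase release 5. Bowtie, version 0.12.7, is credited to the submitters' processing notes, which give it no role. For the region caller, its threshold and the combining of replicates, the method is not given in the sources used here. Rows marked as enriched were used, and depth is unknown.

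From the deposited scores and intervals, coverage, length and score were computed with Python 3.11.15, NumPy 2.4.6 and SciPy 1.17.1. Coverage took sequence lengths from the headers. The score scale was examined with a relative tolerance of 1e-12 and denominators up to 50000. The available gene table is of release 6, so no gene, promoter or sequence was assigned. Coverage, border and overlap steps were tested on simulated data. The regions and rules were chosen with earlier results of these data known. The text names every cluster beyond a border, on 4 or on Het that was shared, and before the border the longest, highest-scoring and last ones. Alternatives were score, length, merging, window, threshold, overlap, list and replicate.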

Additional observations from a re-analysis of the deposited data

How the results depend on the processing

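Among 75 alternative values of 12 results, 34 moved and 41 stayed the same. Same means within the replicate SD or, for counts of shared clusters, within a set factor. With 2 replicates, a ratio or difference from a single replicate always lies within that SD. A reversal was defined only for coverage ratios and differences in median, and 0 of them reversed. Borders and counts could not reverse. All 30 alternative coverage ratios stayed below 1. With the upper 50% by score the ratios were 0.0970 on 2L, 0.0220 on 3L, 0 on 4 and 0.00124 on Het; without clusters under 2000 bp they were 0.107, 0.0370, 0.0139 and 0.00277. The combined set gave 0.146 on 2L, 0.0621 on 3L, 0.485 on X, 0.0406 on 4 and 0.0122 on Het. Leaving out 1 replicate gave 0.122 to 0.127 on 2L, 0.0414 to 0.0503 on 3L, 0.397 to 0.427 on X, 0.0206 to 0.0212 on 4 and 0.00634 to 0.00771 on Het.

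The 2L border moved to 21.3 Mb at a 5% threshold and in the combined set, 21.25 Mb with 50 kb windows and 21.2 Mb with 200 kb windows. The 3L border moved to 22.9 Mb at 20% and with the upper 50% by score, and to 22.95 Mb with 50 kb windows. The X border moved to 22.42 Mb, the end of the sequence, at 5%, to 21.2 Mb at 20%, with the upper 50% by score and by the first run of 5 low windows, to 22.15 Mb with 50 kb windows and to 22.3 Mb in the combined set. Without either replicate the borders were 21.1, 23.0 and 22.2 Mb. The number of shared clusters fell from 25 to 1 in each replicate with the upper 50% by score, since 4 and 3 clusters were left, and rose to 39 and 41 with borders at 20%. With the border at the first run of low windows, an alternative chosen after seeing the data, 33 of 50 replicate 1 clusters and 34 of 49 replicate 2 clusters were shared.

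The difference in median length was -1136 bp without clusters under 2000 bp and -548 bp in the combined set, with -346 to -314 bp for single replicates. That in median score was -0.096 and -0.076, with -0.17 to -0.16 for single replicates. For these moved values the cause was not tested. No paired analysis was possible because the input libraries, which share the replicate numbers, have no list analysed here; sharing needs both replicates and has no value without 1 of them.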
